A study of Mus musculus with 2 samples.

Results

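Rab GTPases are the largest branch of the Ras superfamily of small GTPases. Each switches between an inactive GDP-bound and an active GTP-bound state, and in the active state it recruits effectors (tethers, motors, enzymes) to the membrane it marks. Exchange factors load GTP, GTPase-activating proteins with a TBC domain switch the Rab off, and prenyl anchors added by geranylgeranyl transferase hold it on the membrane. In macrophages the succession of Rab5 by Rab7 accompanies the maturation of endosomes and phagosomes towards lysosomes, the route on which the lipid kinase PIKfyve works.

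The members were all genes whose symbol is Rab followed by a number and at most a letter and a further digit, among array rows annotated with a single symbol. This gave 58 Rab genes from 66 rows, out of 22180 genes in all. The rule used symbols only and no measured value. All 58 were matched to the RefSeq gene table by their Entrez identifier. Rab4b was outside the rule because its rows carry several symbols (Rab4b and Mia share a row that read 7.30 and 7.41).

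The samples are 1 array of alveolar macrophages labelled wild type, which the labels describe as PIKfyve f_f, and 1 labelled PIKfyve KO, described as f_f_lysm_cre. Both came from adult C57BL6 littermates kept specific-pathogen free, so the floxed alleles are shared and the Cre allele is the stated difference. LysM-Cre is driven from the lysozyme 2 locus and acts in the myeloid lineage, neutrophils included, not in alveolar macrophages alone. Cells positive for Siglec-F and CD11c and negative for DAPI were sorted after collagenase digestion, and cDNA was amplified from 10 ng of total RNA; the sources used here do not give how many mice each array stands for. There was no replication, so no difference below has an error or a test.

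The arrays are called the WT-labelled and the KO-labelled array. Values are log2 RMA values, and differences are KO-labelled minus WT-labelled. Where a pair of values is given, the WT-labelled array comes first. A gene was called present when it lay above the 95th percentile of 1428 olfactory, vomeronasal and taste receptor genes, 5.37 on the WT-labelled array and 5.31 on the KO-labelled array. A fold for a gene below that background on 1 array is measured from the background and written "at least". The local spread is a robust SD of the differences among genes of similar level, between 0.20 and 0.33. It holds noise and real differences together. Levels of different genes are not set against each other, because each row has its own probes.

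Pikfyve itself read 5.68 and 5.95, not lower in the KO-labelled array, and 96.3% and 98.2% of the receptor genes lay below it. The labels do not place its probes with respect to the deleted exons. This row therefore does not check the genotype, and the arrays are named by their labels throughout. Lyz2, the host locus of the Cre, read 12.84 and 12.83. All 17 alveolar macrophage markers were above background on both arrays. Siglecf read 9.27 and 8.54, and Itgax, which encodes CD11c, 10.03 and 10.39.

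Most Rab genes differed little between the arrays. Of the 58 members, 39 were above background on both arrays, 5 on 1 array (Rab34, Rab4a, Rab3c, Rab25 and Rab26) and 14 on neither. A filter on low values, a mean of both arrays at or above the median of all rows (5.13), was passed by 44 Rab genes among 12516 genes. Their median difference was 0.00, as was that of all genes that passed. Of the 44, 23 read higher and 21 lower in the KO-labelled array, against 48.9% of all genes higher; with other scalings of the arrays the higher count lay between 19 and 24. Within 1 local spread of no difference lay 34 of the 44 (77.3%) and 65.4% of all genes.

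At a threshold of 1.5-fold, 3 Rab genes that passed were higher (Rab34, Rab27a and Rab9), where 4.45% of all genes were, and 1 was lower (Rab44), where 2.66% were, so 4 of 44 in either direction stand beside 7.11% of all genes. Rab4a, which fell just short of the filter with a mean of 5.127, was also past 1.5-fold as read, and so was Rab39, in the lower direction and below background on both arrays. At 2-fold only Rab34 was left among those that passed, against 0.927% of genes higher, 0.336% lower and 1.26% in either direction. The members' shares are near those of all genes. Of the 44, 2, Rab34 and Rab27a, differed by more than 2 local spreads.

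**Figure D1:**
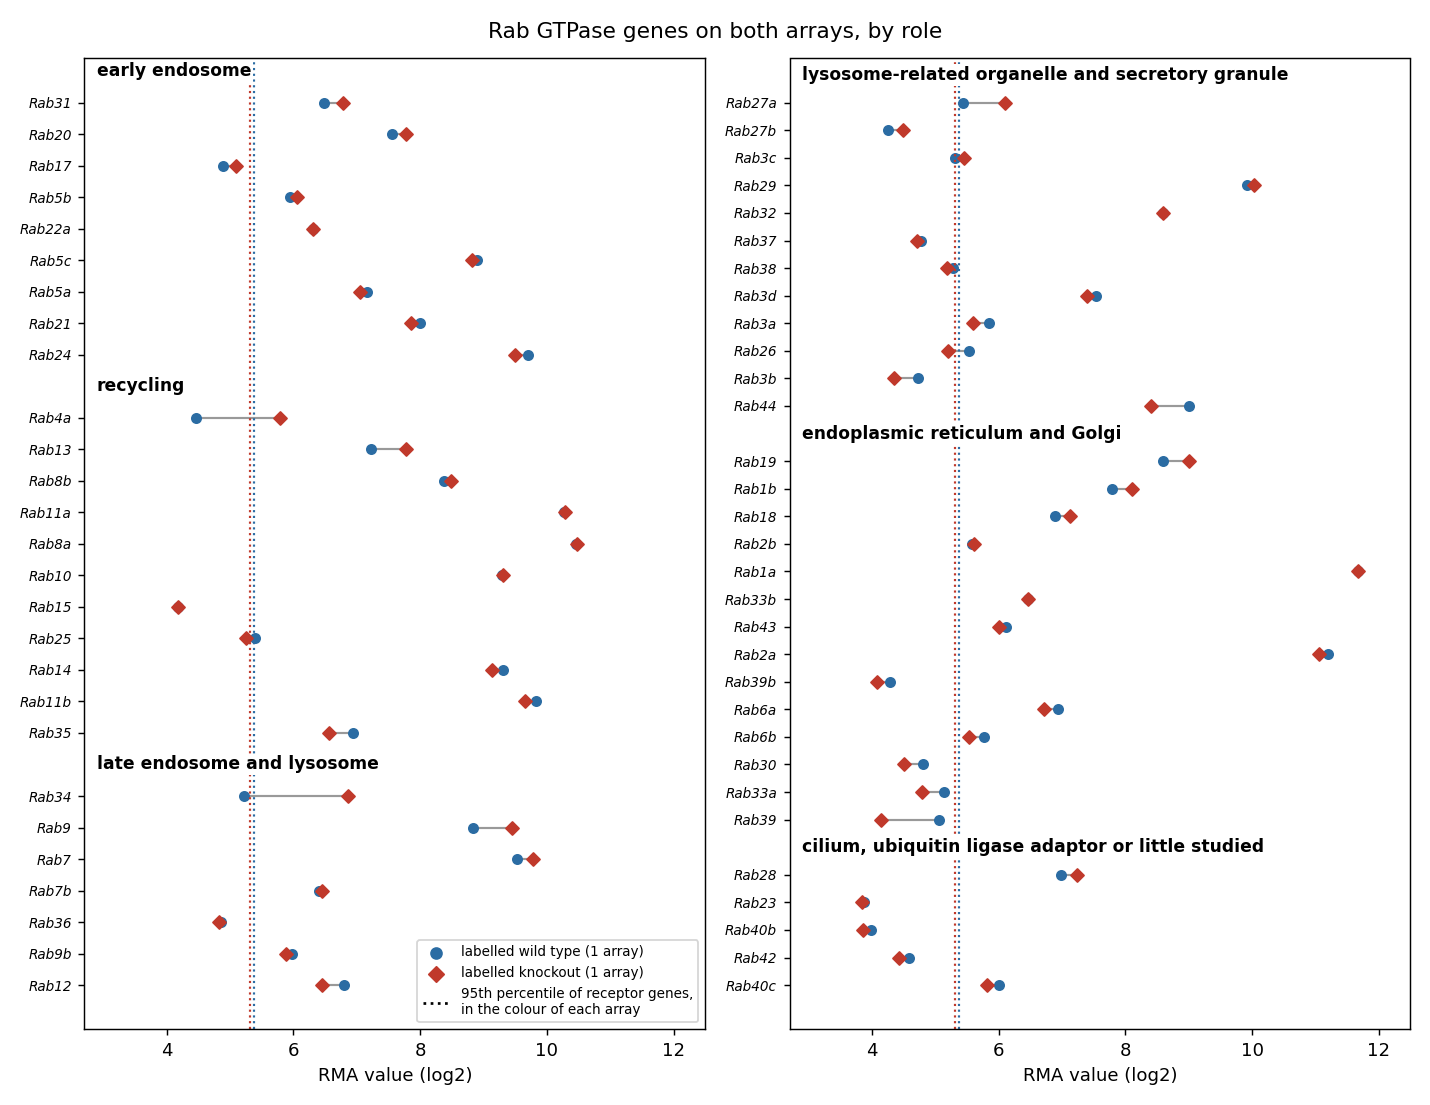
Values of all 58 Rab genes on the WT-labelled array (blue circles) and the KO-labelled array (red diamonds), log2 RMA values, grouped by role; dotted lines give the background of each array (5.37 and 5.31). Most pairs of points lie close together, and Rab34 and Rab4a cross the background lines from left to right.

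Late endosome and lysosome Rabs held the largest difference of the 58 members. Rab34, a Golgi and phagosomal Rab that binds the effector RILP and takes part in positioning lysosomes, read 5.22 and 6.86. It was within background in the WT-labelled array and clearly above it in the KO-labelled array. The difference as read was 1.64, and measured from background Rab34 was at least 2.80-fold higher. Rilp, whose product binds both Rab34 and Rab7, read 7.45 and 7.56. The neighbouring gene Proca1 differed in the other direction, by -0.44 as read, with 5.47 and 5.02. The second value is below background, and measured from background Proca1 was at least 1.11-fold lower.

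The Rab34 promoter is shown because this gene had the largest difference of the family. It is the 300 bases from 250 before to 50 after 1 of its 2 annotated start sites in RefSeq, GRCm38.p6, chr11:78188177-78188476, plus strand, with its match to TGANTCA, the AP-1 element bound by Fos and Jun dimers, in capitals.
Rab34: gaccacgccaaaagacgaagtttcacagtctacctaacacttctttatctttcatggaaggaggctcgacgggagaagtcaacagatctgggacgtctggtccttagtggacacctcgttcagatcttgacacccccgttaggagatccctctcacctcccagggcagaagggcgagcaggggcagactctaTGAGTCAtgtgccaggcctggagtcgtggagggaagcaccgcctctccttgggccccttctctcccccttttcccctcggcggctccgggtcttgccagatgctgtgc
The match begins 58 bases before the start site. TGANTCA, searched on both strands, was in 3 of 59 Rab promoter windows (5.08%), a lower share than the 7.81% of all 32851 windows. The other Rab genes with it were Rab15 (4.18 on both arrays) and Rab39b (4.29 and 4.09), both below background, so among them Rab34 alone was present on either array.

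Rab9, which returns mannose-phosphate receptors from late endosomes to the trans-Golgi network, read 8.84 and 9.45, well above background on both arrays. It was 1.53-fold higher in the KO-labelled array. Among genes of its level the local spread was 0.31 and Rab9 differed by 0.61. Its paralogue Rab9b read 5.98 and 5.88. Dennd2a, an exchange factor for Rab9, read 7.10 and 7.73, 1.55-fold higher, and Plin3 (TIP47), a Rab9 effector in receptor retrieval, read 6.81 and 7.23. The golgin gene Gcc2, another effector, read 6.77 and 6.78. Dennd2a was named by the rule for the exchange factor list, whereas Plin3 and Gcc2 were picked as Rab9 effectors after their values were seen.

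Rab7, the Rab of late endosomes that brings about fusion with lysosomes, read 9.53 and 9.79, a difference of 0.26, inside its local spread of 0.30. Rab7b, a monocyte-lineage relative, read 6.41 and 6.45. The subunits of the Rab7 exchange factor were as close: Mon1a differed by 0.18, Mon1b by -0.03 and Ccz1 by 0.14. Rab12, which directs transferrin receptor to lysosomes, had the most negative difference of the group, reading 6.80 and 6.45. Rab36 was below background on both arrays. Of the 6 members of the group that passed, 4 read higher, beside 48.9% of all genes. The 4 include Rab7 and Rab7b, both inside their local spread. The count was the same under every scaling tried, but the scalings use the same 2 arrays.

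Among Rabs of lysosome-related organelles and secretory granules, Rab27a and Rab44 differed in opposite directions. Rab27a docks and tethers such organelles, among them melanosomes and the lytic granules of cytotoxic lymphocytes. It read 5.43 and 6.10, just above background in the WT-labelled array, and was 1.59-fold higher in the KO-labelled array. That is a difference of 0.67 where the local spread was 0.27. Its paralogue Rab27b read 4.25 and 4.49, below background on both.

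In pigment cells Rab27a acts in a chain with melanophilin (Mlph), its effector, and myosin Va (Myo5a), the actin motor that melanophilin recruits. Both partner genes were also higher in the KO-labelled array. Myo5a read 6.48 and 8.20, 3.29-fold higher, the largest difference among the 151 regulator and effector genes that passed the filter. Mlph read 5.55 and 6.15, 1.51-fold higher. Other Rab27 effectors did not differ by as much: Unc13d (Munc13-4) read 5.70 and 5.53, Sytl1 5.58 and 5.54, and Sytl3 5.51 and 5.65. Sytl2, Sytl4, Sytl5 and Myrip were below background on both arrays. Rab27a and Myo5a lie on chromosome 9 with 9 measured genes between them in the RefSeq table; 3 of those passed the filter, and the 9 ranged from -1.87 to 0.18.

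A second annotated start of Rab27a has a CACGTG, the core recognised by many basic helix-loop-helix factors, and its surroundings are shown with the match in capitals (GRCm38.p6, chr9:73063898-73063947, plus strand).
Rab27a: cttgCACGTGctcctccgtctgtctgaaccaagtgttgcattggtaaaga
It begins 246 bases before that start. CACGTG was in 6 of 59 Rab windows (10.2%) and in 7.15% of all windows.

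Rab44, an atypically large Rab with EF-hands found in granulocytes and mast cells, read 8.997 and 8.397, above background on both arrays. It was 1.52-fold lower in the KO-labelled array. The difference of -0.60 compares with a local spread of 0.31. Most neutrophil markers went the other way: all 11 were above background on both arrays, and 9 read higher in the KO-labelled array and 2 lower. Their summed linear signal was 7081 and 9728. The 2 lower were Csf3r, with 6.32 and 5.68, and Mmp9, with 5.74 and 5.64. Of 7 mast cell, basophil and eosinophil markers, 1 (Hdc) was above background in the WT-labelled array and 4 in the KO-labelled array. Cpa3, Ms4a2 and Fcer1a were below it on both. Of the 7, 4 read higher and 3 lower. Among the lower, Hdc, with 6.13 and 5.48, was 1.57-fold lower, and Ms4a2 and Fcer1a were those below background. Among the higher, Mcpt8 read 4.55 and 5.67, Prg2 4.71 and 5.76, and Epx 4.95 and 5.33. Each of these was above background in the KO-labelled array only. The part of these cells in the Rab44 value was not tested. The neighbouring gene Cpne5 differed by -1.64, and Cdkn1a on the other side by 0.09.

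The exocytic Rab3 genes differed little. Rab3a, the Rab of regulated secretion, read 5.84 and 5.59, and Rab3d, found on secretory granules, 7.54 and 7.39. Rab3c had a difference of 0.14 and Rab3b one of -0.37, the latter below background on both arrays. The rows of Rab3c were unlike, with 3.42 and 3.62 in one and 7.20 and 7.28 in the other. Neither row crossed the background, so its place above background on 1 array comes from averaging them. Rab26, of secretory vesicles, read 5.53 and 5.21 and was at background in the KO-labelled array and at least 1.16-fold lower there. Its relative Rab37 stayed below background on both arrays.

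The Rab32 subgroup, which supplies lysosome-related organelles and binds the kinase LRRK2, was level: Rab32 read 8.60 on both arrays, Rab29 9.91 and 10.04, and Rab38 was below background on both. Lrrk2 itself read 5.65 and 5.91 and Lrrk1 5.78 and 5.51, each near 1 local spread. Of the 9 granule and lysosome-related Rabs that passed, 3 read higher and 6 lower, beside 48.9% of all genes higher.

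Recycling Rabs contained Rab4a, the second largest difference as read. Rab4a, which drives rapid recycling from early endosomes to the plasma membrane, read 4.47 and 5.79. It was below background in the WT-labelled array and above it in the KO-labelled array, at least 1.33-fold higher. The fold measured from background is therefore under 1.5, although the difference as read was 1.32. The shared row of Rab4b differed by 0.10, and the neighbour Ccsap by 0.15. Rab14, which acts between the Golgi and endosomes and groups with Rab4 by sequence, read 9.30 and 9.14.

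Rab13, which carries cargo to the cell surface and cell junctions, read 7.22 and 7.78, 1.46-fold higher in the KO-labelled array. Its relatives Rab8a, Rab8b and Rab10 differed by 0.02, 0.12 and 0.01. Among effectors shared by Rab8, Rab10 and Rab13, Ehbp1l1 read 6.42 and 5.72 and Mical3 6.20 and 5.59, 1.62-fold and 1.53-fold lower. Rilpl2, a RILP relative that binds phosphorylated Rab8 and Rab10, was 1.54-fold higher, with 7.79 and 8.41. So Rab8a, Rab8b and Rab10 were level, Rab13 read higher, and these effector genes lay on both sides of the threshold.

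Rab11a and Rab11b, of the recycling endosome, read 10.27 and 10.29, and 9.82 and 9.65. The 3 rows of Rab11b gave differences of -0.42, -0.01 and -0.08, so the mean rests mainly on 1 row. Rab25, the epithelial member, read 5.40 and 5.26, at background. Airway epithelium markers are given beside it: 10 of 12 were above background on each array, and Foxj1 was below background on both. In the KO-labelled array 8 read higher and 4 lower. Of the higher ones, Bpifa1 read 7.32 and 9.78, 5.53-fold higher, and Scgb3a1 8.07 and 9.53, 2.77-fold higher. Of the lower ones, Epcam read 8.09 and 6.09, 3.98-fold lower. The summed linear signal of the list was 6519 and 8204 (1626 and 2830 without Scgb1a1, the brightest). Rab35, of fast recycling, read 6.93 and 6.57, 1.29-fold lower, the largest negative difference in this group. Rab15 was below background on both arrays.

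**Figure D2:**
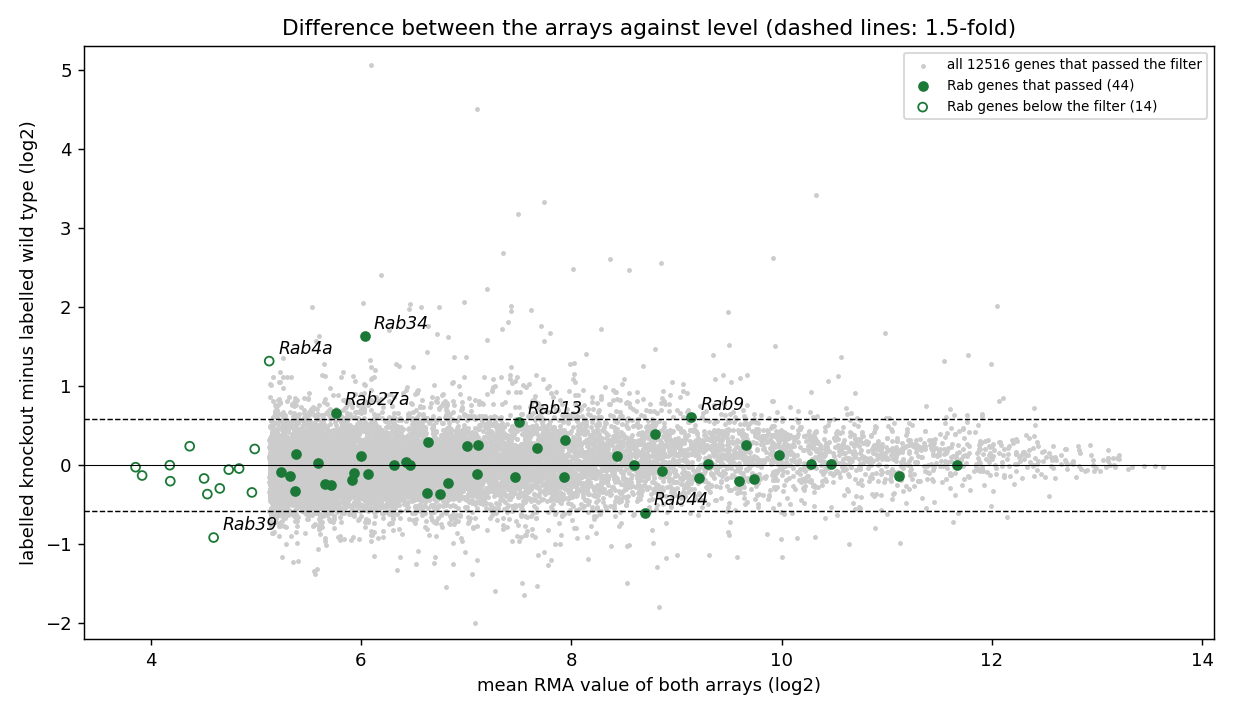
Difference between the arrays (labelled knockout minus labelled wild type, log2) against the mean of both arrays for 12516 genes (grey) and for Rab genes that passed the filter (filled green, 44) or did not (open green, 14); dashed lines mark 1.5-fold. The filled points lie within the range of the grey ones, -1.99 to 5.06, with Rab34 highest at 1.64 and Rab44 lowest at -0.60. The open points have lower means than the grey ones, and Rab39 is the lowest of them at -0.91.

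Early endosomal Rabs differed little: of the 8 that passed none was 1.5-fold apart, 4 read higher and 4 lower. The Rab5 genes, whose products organise early endosomes and recruit the phosphatidylinositol 3-kinase that makes the substrate of PIKfyve, differed by -0.11 (Rab5a), 0.11 (Rab5b) and -0.08 (Rab5c). Rab31, of transport between the Golgi and endosomes and of phagosomes, had the most positive difference of the group, reading 6.49 and 6.78. Rab20, which acts on macrophage phagosomes, read 7.56 and 7.78. Its rows differed by 0.05 and 0.38. Rab21 read 8.002 and 7.86, Rab22a 6.31 on both arrays, and Rab24, linked to autophagy, 9.70 and 9.49. Rab17, an epithelial Rab, was below background on both.

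Of these genes, 3 hold the palindrome GTCACGTGAC. It was the commonest 10-base context of CACGTG with each window read as written, in 107 windows, and CCCACGTGAC was next, in 57. A context that is not a palindrome was counted apart from its reverse complement, so the rank holds for this count only. GTCACGTGAC is the known consensus of the CLEAR element through which TFEB and TFE3 act on lysosomal genes. The surroundings of the palindrome in these 3 genes are shown for that reason. Sequences are from RefSeq, GRCm38.p6, read in the direction of the gene, with the palindrome in capitals: Rab5a chr17:53479097-53479186, plus strand; Rab21 chr10:115315574-115315663, minus strand; Rab24 chr13:55321931-55322020, minus strand.
Rab5a: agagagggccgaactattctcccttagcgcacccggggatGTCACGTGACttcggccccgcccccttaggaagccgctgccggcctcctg
Rab21: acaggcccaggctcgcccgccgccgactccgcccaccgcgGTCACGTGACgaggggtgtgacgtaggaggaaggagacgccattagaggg
Rab24: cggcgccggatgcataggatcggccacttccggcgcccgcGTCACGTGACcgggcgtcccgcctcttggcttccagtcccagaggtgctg
The palindrome begins 97 bases before the start of Rab5a, 32 bases before that of Rab21 and at the start of Rab24. It was in 3 of 59 Rab windows (5.08%), of 47 Rab genes in the promoter table, and in 0.326% of all windows. It contains CACGTG, so these windows are also among the 6 with that core. All 3 genes read slightly lower in the KO-labelled array, by -0.11, -0.15 and -0.20, each inside its local spread. Of the genes with larger differences, Rab34 and Rab9 have neither CACGTG nor the palindrome in their windows, Rab27a has CACGTG alone, and Rab4a and Rab44 were not matched to the table.

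Rabs of the endoplasmic reticulum and Golgi were level, with none of the 10 that passed 1.5-fold apart. Rab19, a Golgi Rab, had the most positive difference, reading 8.60 and 8.998, 1.32-fold higher. Rab1b, of transport from the endoplasmic reticulum to the Golgi, read 7.79 and 8.10, whereas Rab1a read 11.67 and 11.68. Rab18, of the endoplasmic reticulum and lipid droplets, read 6.89 and 7.13. The subunits of its exchange factor, Rab3gap1 and Rab3gap2, differed by 0.48 and 0.18.

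The retrograde Golgi Rabs Rab6a and Rab6b read 6.94 and 6.71, and 5.77 and 5.54. Rab2a and Rab2b, of the early secretory pathway, differed by -0.14 and 0.03, Rab33b by 0.00 and Rab43 by -0.11. Rab39 gave the largest negative difference of all members as read, 5.06 and 4.14, but both values are below background, so no fold is given. Rab30, Rab33a and Rab39b were also below background on both arrays.

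Of the remaining Rabs, Rab28, a ciliary Rab, read 6.99 and 7.24, and Rab40c, an adaptor of a ubiquitin ligase, read 6.01 and 5.82. Rab23, Rab40b and Rab42 were below background on both arrays. Over the 14 members below background on both arrays the differences ranged from -0.91 to 0.24.

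The genes that act on Rabs were described from lists of exchange factors, TBC proteins, effectors, Rab cycle enzymes, kinases and phosphatases, and Rab relatives. Together 151 of 169 measured genes passed the filter; 7 were at least 1.5-fold higher as read and 3 lower, with a median of -0.03. These counts are near the shares of all genes, 4.45% and 2.66%. Of 45 exchange factor genes, 1 was 1.5-fold higher (Dennd2a) and none lower. Trappc2, a TRAPP subunit, read 7.52 and 8.05, and of the Rab10 exchange factors Dennd4a read 7.69 and 7.18 and Dennd4c 7.27 and 7.78, in opposite directions.

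Of 35 TBC genes, 23 read lower and 12 higher, with a median of -0.10; the lower count lay between 20 and 23 under the other scalings, and 48.9% of all genes read higher. The 2 past 1.5-fold as read were both higher: Tbc1d7, also a subunit of the TSC complex, read 6.68 and 7.31 (1.55-fold), and Grtp1 5.11 and 5.81, below background in the WT-labelled array. Measured from background Grtp1 was at least 1.35-fold higher, under the threshold. Usp6nl, which inactivates Rab5, read 6.20 and 5.71. Evi5l was at background in the KO-labelled array, with 5.48 and 5.02.

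Effectors had a median of -0.01 over 48 genes, with 3 at least 1.5-fold higher (Myo5a, Rilpl2 and Mlph) and 2 lower (Ehbp1l1 and Mical3), beside 4.45% and 2.66% of all genes. Among 8 kinase and phosphatase genes, Ppm1j, a relative of the Rab phosphatase Ppm1h, read 7.60 and 6.79, 1.76-fold lower. Its relative Ppm1m read 8.25 and 8.05. Of 7 Rab cycle genes none was 1.5-fold apart: Rabac1, which helps release Rabs from the carrier GDI, read 11.61 and 12.12, Gdi2 11.43 and 11.34, the escort protein gene Chm 5.22 and 5.44, and Rabggta, a subunit of geranylgeranyl transferase, 6.97 and 6.74. Of 8 Rab-like genes, the intraflagellar transport gene Ift22 was 1.67-fold higher, with 8.85 and 9.60. Ift27 read 9.08 and 9.46, Rabl3 6.32 and 6.73, and Rabl6 6.42 and 6.05.

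**Figure D3:**
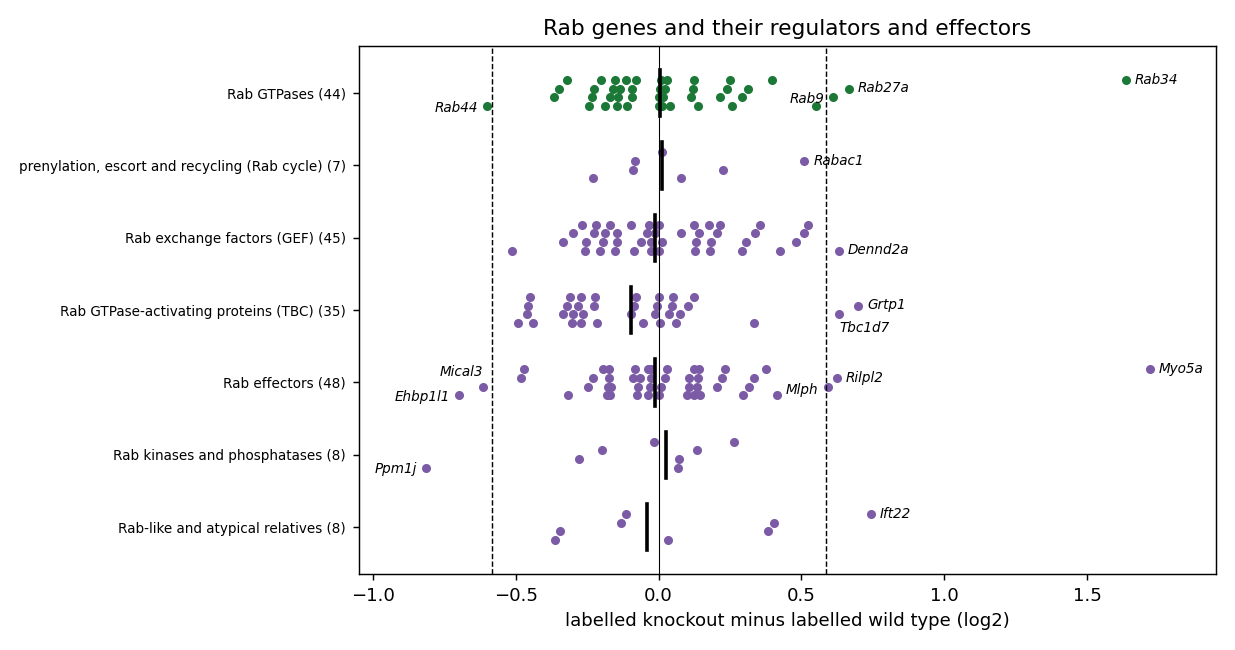
Difference between the arrays (log2) for each gene that passed the filter, for the Rab genes (green) and for each list of genes acting on Rabs (purple); black bars are medians, dashed lines mark 1.5-fold, and the vertical position of points within a list has no meaning. Medians lie between -0.10 and 0.03, and Myo5a (1.72) and Rab34 (1.64) lie farthest right.

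In a sorted population, more cells of another type and more RNA per cell cannot be told apart. Marker lists of other cells are therefore given beside Rab34, Rab4a and Rab27a, as the number above background on the WT-labelled array and then the KO-labelled array, and their summed linear signal. A sum can be carried by 1 bright gene, so single genes are named where they differ from their list. For T and NK cells, in which Rab27a is abundant, 7 of 9 were above background on each array, 7 read higher, and Ncr1 and Klrb1c were below background on both. Their sums were 4163 and 4584, of which Cd2 alone gave 3417 and 3492; without it they were 746 and 1093. The granzyme gene Gzma read 7.09 and 8.23, the T cell receptor chain gene Cd3d 6.43 and 7.21, and Nkg7, of cytotoxic granules, 7.92 and 8.47. Prf1 and Cd3e read lower, with 6.35 and 6.04, and 5.96 and 5.82. So 7 genes of the list read higher in the same array as Rab27a and 2 lower. The 7 are not the 7 above background. They include Ncr1 and Klrb1c, which differed by 0.04 and 0.05 below background, and Cd2, which differed by 0.03. Their part in the Rab27a value was not tested.

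Platelet markers had 5 and 4 of 5 above background, 4 of them higher, with sums of 373 and 557, or 241 and 292 without Ppbp. Itga2b went the other way, with 5.69 and 5.20, at least 1.30-fold lower. Fibroblast markers had 2 of 6 on each, with 219 and 282, and Col1a2, Col3a1, Dcn and Pdgfra were below background on both. Endothelial markers had 2 of 6 on each, with Cdh5, Kdr, Tek and Cldn5 below on both. Their sums were 294 and 395, but the list had 3 genes higher and 3 lower and a median of -0.09. Calcrl read 7.01 and 7.94 and Pecam1 5.53 and 5.32, and without Calcrl the sums were 165 and 149.

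Interstitial macrophage markers had 8 and 10 of 11 above background, 10 of them higher, with sums of 1097 and 1854 and Cd163 below on both. Monocyte markers had 9 of 10 on each, with Vcan below on both, and 7 of 10 read lower, with a median of -0.42. Their sums were 11920 and 12031, carried by Chil3, which is also on the alveolar macrophage list; without it they were 2868 and 2155. Fn1 differed by -1.54, Ms4a4c by -1.33, Plac8 by -1.02 and Ly6c2 by -0.69.

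Alveolar type 2 markers had 6 of 10 on each, with Sftpb, Sftpd, Lamp3 and Slc34a2 below on both, and 5 read higher and 5 lower. Their sums were 1964 and 2170, or 998.8 and 1633 without Napsa. Napsa was 1.80-fold lower, whereas the surfactant genes Sftpc and Sftpa1 were 1.72-fold and 1.80-fold higher and Cxcl15 1.89-fold higher. B cell markers had 5 of 5 on each, with 439 and 416. The sums of the 17 alveolar macrophage markers were 53808 and 58839, and 10 read higher and 7 lower, with a median of 0.13. Among the lower were Krt79 (1.97-fold), Siglecf (1.66-fold) and Lpl (1.64-fold), whereas Fabp5 was 1.64-fold higher. The part of any of these cells in the Rab values was not tested.

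The calls nearest the threshold depended on how the arrays were scaled. Across 5 other settings (median centring, quantile normalization, loess centring, an offset of 32 on the linear scale, and each gene's brightest row in place of the mean over rows) Rab34 and Rab4a stayed past 1.5-fold as read in all 5, Rab27a in 4, Rab44 in 3, Rab9 in 2 and Rab13 in 1. Rab34 ranged from 1.09 to 1.70, Rab4a from 0.69 to 1.38, Rab27a from 0.42 to 0.73, Rab9 from 0.54 to 0.68, Rab13 from 0.47 to 0.62 and Rab44 from -0.65 to -0.53.

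**Figure D4:**
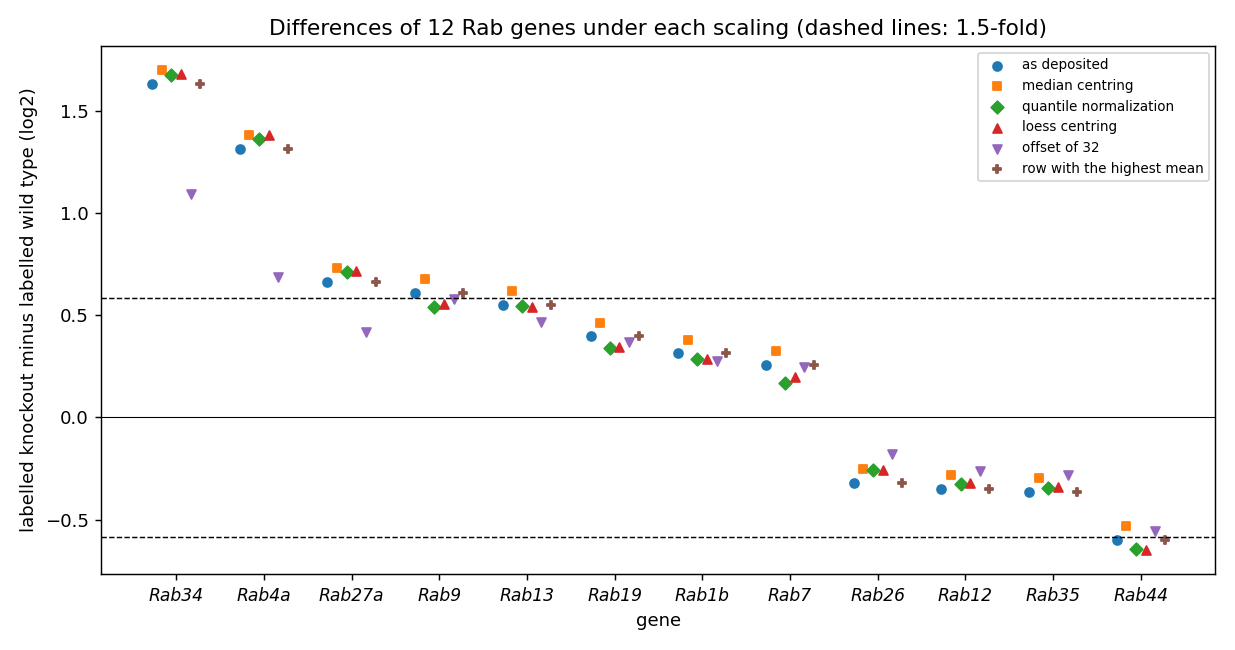
Difference between the arrays (log2) of 12 Rab genes on the values as deposited and under 5 other settings; dashed lines mark 1.5-fold. No gene changes side of 0, the offset lowers Rab34 to 1.09 and Rab4a to 0.69, and Rab9, Rab13 and Rab44 lie at the dashed lines.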

How the data were processed

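The authors deposited log2 values made with RMA, per the submitters' processing notes; the sources used here give no version, annotation or build. This log2 scale was taken from that method and from the range of values, 0.77 to 13.86. Of 41345 rows, 23521 carried 1 symbol in the platform annotation, 1814 several and 16010 were not listed; rows with 1 symbol were averaged per gene, and 7 Rab genes had more than 1 row. With 1 array per genotype no model was fitted and no p-value computed. Precision is limited by the number of arrays. Python 3.11.15, numpy 2.4.6, pandas 2.3.3, statsmodels 0.14.6 and matplotlib 3.10.9 were used.

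The members and the gene lists were chosen with earlier results of these data known. Rab genes given values were those with the 12 most positive and 12 most negative differences that passed the filter, their paralogues and any past 1.5-fold, and the remaining members were added to complete each role; from each other list, the 4 with the largest absolute difference and any past 1.5-fold. Other genes were picked after their values were seen. Promoter windows are from RefSeq (GRCm38.p6); overlapping windows on opposite strands gave the same bases in 1843 of 1843 cases. Alternatives were other filters, scalings, thresholds and row choices.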

Additional observations from a re-analysis of the deposited data

How the results depend on the processing

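The count of Rab genes at least 1.5-fold higher was 3 as deposited and 1 of 30 with the filter at the 75th percentile of rows (Rab9, as fewer genes were kept) and 1 with a 2-fold threshold; it was between 2 and 4 under the other settings. The count at least 1.5-fold lower was 1 as deposited, 2 with no filter, and 0 with median centring, an offset of 32, a 2-fold threshold or a threshold of 2 local spreads. The count of Rab genes higher by any amount was 23 as deposited and between 17 and 26 otherwise, over 30 to 58 genes. Their median difference lay between -0.05 and 0.07 under all settings, and the sign of this median was not the same in all of them. The values of 42 Rab genes under 5 settings gave 207 that moved by less than the local spread and 3 that moved by more, all with the offset: Rab34 to 1.09, Rab4a to 0.69 and Rab39 to -0.39. No called gene changed sign. No paired analysis was possible because there is 1 array per genotype, and for the same reason no array could be left out. Signal over background limits what can be read for the 14 Rab genes below it on both arrays.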

Other observations

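Some other families of small GTPases, chosen after the Rab values were known, were read in the same way as values without a test. Of 12 Arf and Arl genes that passed the filter, 8 read higher in the KO-labelled array, with a median of 0.10. None was 1.5-fold apart. Arl3 and Arl11 read 9.14 and 9.58, and 10.12 and 10.55. Of 9 Ras, Rap and Ral genes, 3 read higher and 6 lower. Beside these counts, 48.9% of all genes read higher. With so few genes, no direction is read from either family.

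Of 83 genes beside a Rab gene on the chromosome that passed the filter, 2 were at least 1.5-fold higher and 3 lower, with a median of 0.06, where 4.45% and 2.66% of all genes were; no test was made. Some pairs did share a direction, and these were picked after their values were seen. Trappc2, next to Rab9, differed by 0.52 beside 0.61, and Cpne5, next to Rab44, by -1.64 beside -0.60. Aph1c, next to Rab8b, differed by 1.73 while Rab8b differed by 0.12. Several Rab genes overlap another gene in the RefSeq table, among them Rab5b with Pmel, Rab2b with Tox4, Rab37 with Cd300lf and Rab6a with Mrpl48, and the labels do not state the strand of the probes.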
